A study of Drosophila melanogaster with 36 samples.

Results

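The effect of an inhaled biocide on gene expression in male Drosophila melanogaster was measured on day 7, with 3 libraries of exposed males and 3 libraries of males in filtered air. These 6 libraries were chosen by their labels as the exposed and the air males of that day, out of 36 libraries in the series. Exposed males were whole wild-type flies, sampled on day 7, that had breathed an aerosol of CMIT/MIT at 330 mg/m3 for 1 hour. Air males were whole wild-type flies of the same day that had breathed filtered air. The full design crosses sex, day (1, 2 and 7) and treatment into 12 groups of 3 libraries each, all of wild-type flies. Neither the age of the flies nor the number pooled is given in the labels, and separate cultures for the replicates, or days counted from the exposure, are not stated either. P-values therefore measure only the spread between these samples, which may be technical. According to the series text the exposure was one that most flies survived, and the question was which transcripts it altered.

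CMIT/MIT is a mixture of chloromethylisothiazolinone and methylisothiazolinone, reactive preservatives that bind thiol groups of proteins and that were used in humidifier disinfectants. Flies answer infection and injury chiefly through the Toll and Imd pathways, which drive the fat body to secrete antimicrobial peptides and bomanins into the haemolymph. Foreign chemicals are met by cytochrome P450s, glutathione transferases and the cnc-Keap1 system that controls many of them. A whole-fly library mixes gut, fat body, nerve, muscle and, in males, testis and accessory gland, so fewer cells of a type and less RNA per cell cannot be told apart.

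The libraries were made by sequencing the 3' ends of transcripts. Exposed libraries held 9995492, 4681333 and 8886762 counts in replicates 1, 2 and 3, and air libraries 8133477, 8367339 and 8777805. Exposed replicate 2 was the shallowest of the 36 libraries. A count of 3 corresponds to 0.641 CPM (counts scaled to library size) there and to between 0.3 and 0.369 CPM in the other 5, counting error only. All 6 carried the male RNA lncRNA:roX1, at 1331, 907 and 1340 CPM in exposed males and 1554, 1478 and 1425 CPM in air males. Levels here and below are CPM scaled by the trimmed mean of M values (TMM).

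Exposed replicate 2 stood apart from the other 5 libraries. Its log2 CPM correlated with theirs at 0.924 to 0.932, while the other pairs ranged from 0.960 to 0.969. By counts air replicate 1 stood apart as well. Chi-square per degree of freedom, which grows as the counts of a pair differ more, was 46.3 to 80.3 in the pairs with air replicate 1. It was 34.7 to 44.2 in the other pairs with exposed replicate 2, and 10.2 to 18.5 in the remaining pairs. Taken on raw counts, this measure also grows with depth and gives most weight to abundant transcripts. It therefore does not rank the shallow exposed replicate 2 against air replicate 1. In exposed replicate 2, 125 of the 13216 genes tested were over 4-fold above the highest of the other libraries at 5 CPM or more. No other library had more than 3 such genes. Of the 125 genes, 6 were among the 19 Toll-induced peptides tested and 5 among the 23 ovary and eggshell genes tested. The JNK and wound list and the carboxylesterase and juvenile hormone list held 2 each, and the antimicrobial peptide and chemoreceptor lists 1 each. Most of the 125 were in none of the 49 gene lists used below. Though the shallowest, exposed replicate 2 had the most genes with a count of the 36 libraries, 14456. Values without it are given beside those results that it moved most.

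No gene passed the test between exposed and air males on day 7. Of 13216 genes tested with edgeR's quasi-likelihood test, 0 passed an adjusted p of 0.05 (0%), and the smallest adjusted p was 1. DESeq2, run on counts not filtered beforehand, gave 16120 genes an adjusted p and likewise called 0, with a smallest adjusted p of 0.0509. It had 304 genes at an unadjusted p under 0.05, from a larger set of genes than that of edgeR. At an unadjusted p under 0.05 in edgeR's test there were 250 genes, 168 of them higher in exposed males (1.27%) and 82 lower (0.62%). Together they were 1.89% of the genes tested. The threshold of the series text, over 1.5-fold with an unadjusted p under 0.05, admitted 162 genes with higher levels (1.23%) and 65 with lower levels (0.492%) in exposed males.

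Without exposed replicate 2, the unadjusted threshold was met by 29 genes with higher (0.221%) and 50 with lower levels (0.382%), and 0 genes passed the adjusted one. The count on the higher side was thus far smaller without that library. The median log2 fold change over all genes was 0.00 with a median standard error (SE) of 0.36. For 6827 genes (51.7%) the 95% interval of the fold change lay within 2-fold in either direction. For the others a difference of 2-fold or more was not excluded with 3 libraries a side. The 3 libraries of each arm did not overlap for 539 genes with exposed males higher (4.08%) and 614 with exposed males lower (4.65%).

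**Figure D1:**
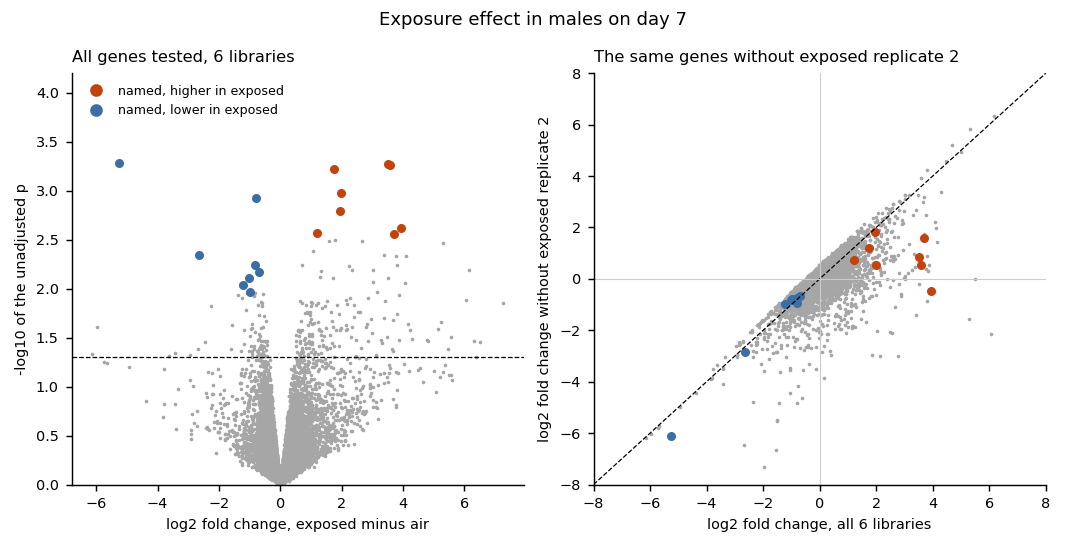
Left, each of the 13216 genes by its log2 fold change (exposed minus air) and the negative log10 of its unadjusted p, with the dashed line at 0.05. Right, the log2 fold change of each gene with all 6 libraries against that without exposed replicate 2, with the dashed line at equality. Coloured points are the 8 genes with the smallest p in each direction. Most of the coloured genes that are higher in exposed males lie far below the line of equality, and those that are lower lie near it.

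The 8 genes with the smallest p on the higher side were CG30377, CG13300, AstA-R1, nAChRalpha3, inv, Hr4, dao and Cp19, each with an adjusted p of 1 in edgeR's quasi-likelihood test. CG30377, an uncharacterised gene on chromosome arm 2R at 7890025 to 7915032 (BDGP6.54 annotation of the dm6 assembly), had 4.73, 69.7 and 3.21 CPM in exposed males, against 2.11, 2.81 and 1.72 CPM in air males. All exposed libraries were above all air libraries, but only replicate 2 stood far above them. Its log2 fold change was 3.52 (SE 0.85), and 0.85 without exposed replicate 2. Hr4, a nuclear receptor of the ecdysone cascade, had 0.886, 162.8 and 4.27 CPM in exposed males and 1.06, 4.39 and 5.26 CPM in air males. Among the males of day 7 exposed replicate 2 stood alone, the other exposed libraries lying within or below the air range. The log2 fold change of 3.94 (SE 1.13) became -0.47 without that library. For CG13300 the levels were 3.25, 86.4 and 4.15 CPM in exposed males and 1.64, 4.02 and 2.06 CPM in air males. Again a single exposed library held the difference, with a log2 fold change of 3.57 (SE 0.87) with it and 0.53 without it.

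Genes of nerve cells and hormone signalling were among the same 8. The nicotinic acetylcholine receptor subunit nAChRalpha3 had 24.9, 138.1 and 18.3 CPM in exposed males, against 13.4, 14.3 and 17.4 CPM in air males. All exposed libraries were above all air libraries, replicates 1 and 3 by far less than replicate 2. The log2 fold change was 1.99 (SE 0.52), or 0.53 without replicate 2. AstA-R1, a receptor for allatostatin A, a neuropeptide of feeding and gut control, had 5.32, 21.5 and 11.4 CPM in exposed males and 3.28, 3.66 and 4.12 CPM in air males. Here too every exposed library lay above every air library, and the log2 fold change of 1.76 (SE 0.43) was 1.18 without replicate 2. The homeobox gene inv, a paralogue of engrailed, was the one of the 8 that changed least when replicate 2 was left out. It had 3.74, 5.03 and 4.04 CPM in exposed males and 1.76, 0.488 and 1.03 CPM in air males, a log2 fold change of 1.94 (SE 0.53) with all libraries and 1.83 without replicate 2. The arms did not overlap, at 94 counts summed over exposed and 28 over air libraries. The gene dao had 11.8, 27.2 and 12.6 CPM in exposed males and 7.74, 9.15 and 5.15 CPM in air males, also with no overlap. For dao the log2 fold change was 1.21 (SE 0.35), and 0.74 without replicate 2.

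**Figure D2:**
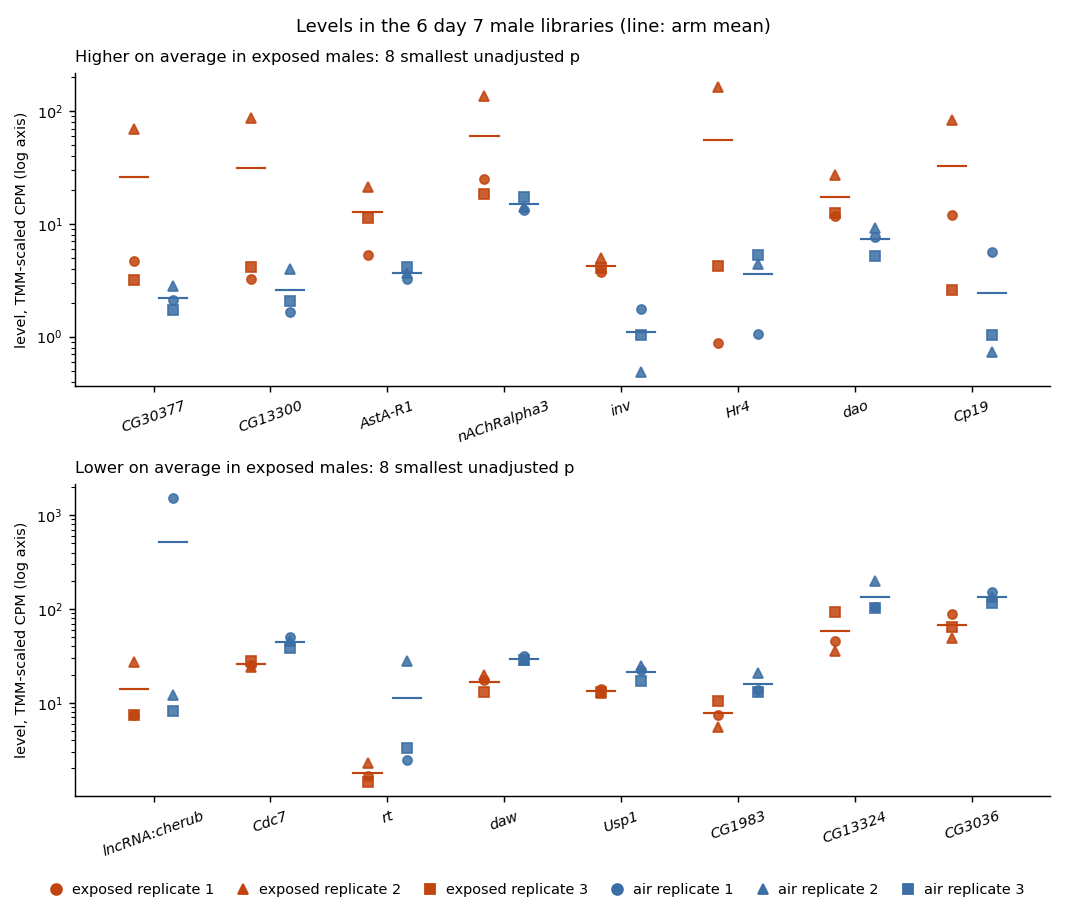
Level in each day 7 male library (TMM-scaled CPM, log axis) of the 8 genes with the smallest unadjusted p on each side, exposed libraries at the left of each pair and air libraries at the right. Symbols mark replicates and lines mark arm means. In the upper panel exposed replicate 2 (triangles) is the highest library for each of the 8 genes. In the lower panel the difference of lncRNA:cherub comes from air replicate 1 alone.

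On the lower side the 8 genes with the smallest p were lncRNA:cherub, Cdc7, rt, daw, Usp1, CG1983, CG13324 and CG3036, again with an adjusted p of 1 each. The long non-coding RNA lncRNA:cherub, known from larval neural stem cells and their tumours, had 7.39, 27.2 and 7.36 CPM in exposed males, against 1532, 12.1 and 8.12 CPM in air males. Air replicate 1 alone was high. The log2 fold change was -5.27 (SE 1.27) with that library and 0.44 without it. In the other male groups the RNA ranged from 4.12 to 14 CPM, so that single air library stood apart from the males of the other days too.

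Several of the remaining genes were lower by a modest amount in every exposed library. Cdc7 encodes a kinase that fires origins of DNA replication. It lies on chromosome X at 6654541 to 6659709 and had 25.3, 24.2 and 28.13 CPM in exposed males and 50.8, 45.4 and 38.2 CPM in air males. Its arms did not overlap, and the log2 fold change was -0.79 (SE 0.21) with all libraries and -0.74 without exposed replicate 2. The activin-like ligand gene daw, which acts in metabolic signalling between muscle, fat body and gut, had 17.4, 19.9 and 13.1 CPM in exposed males and 31.3, 28.3 and 28.6 CPM in air males. The log2 fold change was -0.82 (SE 0.26), and the highest exposed library was below the lowest air library. Usp1, a ubiquitin-specific protease gene, had 14.1, 12.6 and 12.9 CPM in exposed males and 22.6, 24.4 and 17.2 CPM in air males, with a log2 fold change of -0.69 (SE 0.23). Without exposed replicate 2 the log2 fold changes were -0.94 for daw and -0.65 for Usp1. For these 3 genes the groups were apart by 2-fold or less, and the adjusted p by edgeR was 1 for each.

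The uncharacterised genes CG1983, CG13324 and CG3036 followed the same pattern. CG3036 had 89.1, 48.9 and 64.9 CPM in exposed males against 151.7, 133.4 and 117 CPM in air males, a log2 fold change of -0.98 (SE 0.35). CG1983 had 7.39, 5.49 and 10.3 CPM in exposed males and 13.6, 20.7 and 13.2 CPM in air males, a log2 fold change of -1.02 (SE 0.34). CG13324 had 45.3, 35.7 and 92.2 CPM in exposed males and 104.6, 199 and 103.5 CPM in air males, a log2 fold change of -1.23 (SE 0.43). None of these 3 genes had overlapping arms, and without exposed replicate 2 the log2 fold changes were -0.79 for CG3036, -0.83 for CG1983 and -0.97 for CG13324. The protein O-mannosyltransferase gene rt had 1.67, 2.29 and 1.42 CPM in exposed males and 2.46, 27.7 and 3.32 CPM in air males, with a log2 fold change of -2.65 (SE 0.83) and no overlap. Air replicate 2 was by far the highest library, and without it the log2 fold change was -0.70.

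Across 49 gene lists of pathways and tissues, none had a member past the adjusted threshold. The median log2 fold change was at least 0.5 in size for 3 lists, which hold Toll-induced peptides, ovary and eggshell genes and antimicrobial peptides. The other 46 lists had medians between -0.36 and 0.34, where the median of all 13216 genes was 0.00.

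**Figure D3:**
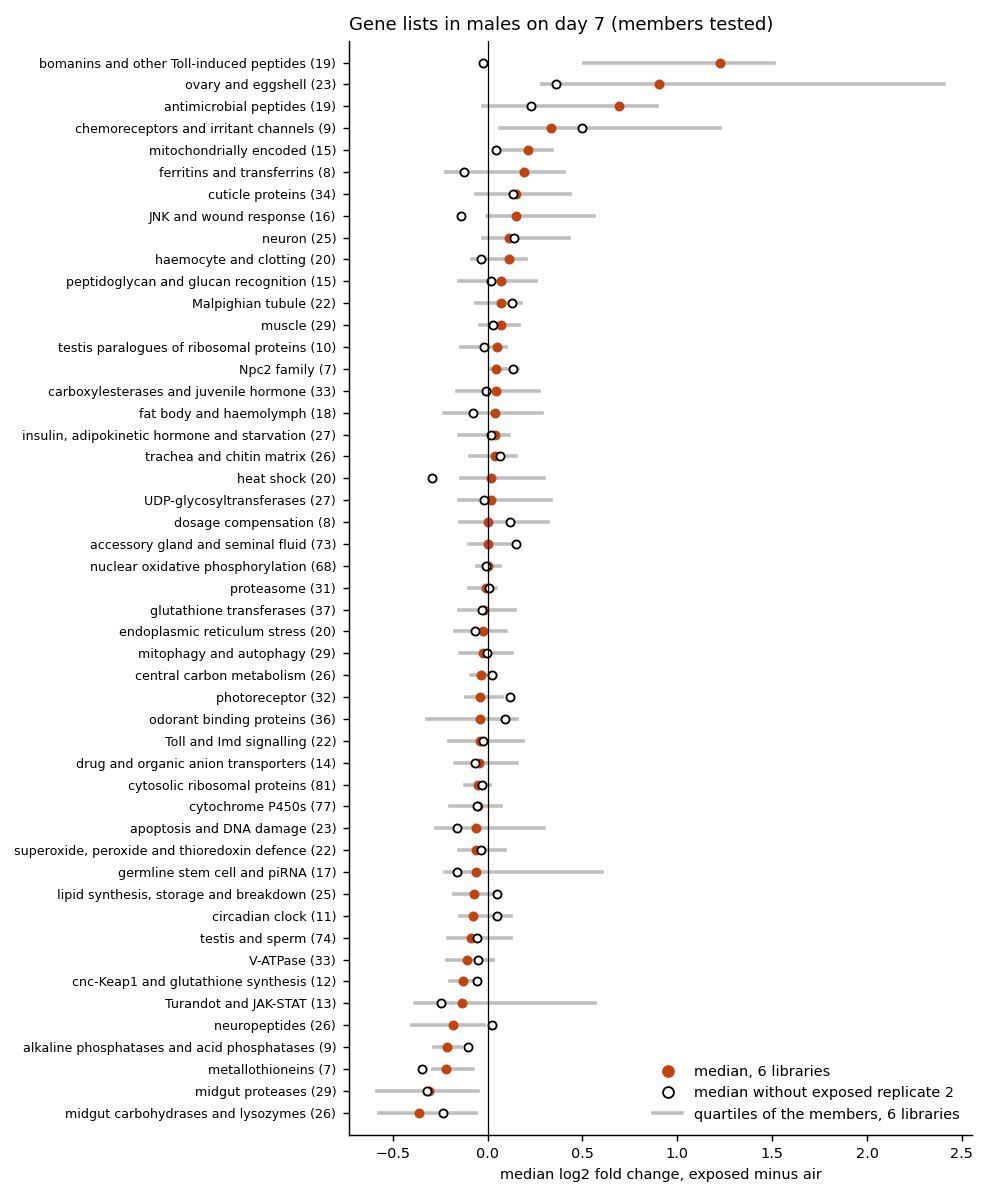
Median log2 fold change (exposed minus air) of each of the 49 gene lists in day 7 males, with the number of members tested in brackets. Filled points use all 6 libraries, open points leave out exposed replicate 2, and bars give the quartiles of the members. The 3 lists with the highest filled points have open points nearer 0, at -0.03 for the Toll-induced peptides.

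The bomanins and other Toll-induced peptides were measured for 19 of 21 listed genes, with the near-identical BaraA1 and BaraA2 too low to test. All 19 had a positive log2 fold change, with a median of 1.22, where 50.4% of all genes were positive. Unadjusted p was under 0.05 for 4 of the 19, against 1.27% of all genes on the higher side. Summed over the list, levels were 8627, 40560 and 13576 CPM in exposed males and 10343, 13882 and 9611 CPM in air males. Only exposed replicate 2 was above the air range. Without it the median was -0.03 and 7 of 18 members were positive. The direction of the list median was not kept without that library.

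The same library was visible gene by gene. BomBc1, a bomanin gene on arm 2R at 18382704 to 18383235, had 41.9, 1259 and 77.7 CPM in exposed males and 35.5, 92.8 and 41.3 CPM in air males. With all libraries the log2 fold change was 3.02 (SE 0.99), and without replicate 2 it was 0.09. BomS1, another bomanin, had 89.7, 1820 and 178.4 CPM in exposed males and 141.5, 238.9 and 96.1 CPM in air males, with a log2 fold change of 2.13 (SE 0.89) or -0.23 without replicate 2. SPH93, a serine protease homologue induced by Toll signalling, had 8.96, 216.9 and 10.9 CPM in exposed males and 2.93, 26.5 and 0.229 CPM in air males, with a log2 fold change of 2.98 (SE 1.26) or 0.03 without replicate 2. For all 3 genes the other exposed libraries lay within or close to the air range. Reads of the bomanin genes, which are close paralogues, could be shared between them in counting.

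Signalling genes of the Toll and Imd pathways did not share this pattern by their median, with a log2 fold change of -0.04 over 22 genes and -0.02 without exposed replicate 2. Their sum was still highest in exposed replicate 2, at 1106 CPM against 710.1 to 860.2 CPM in the other day 7 male libraries. The gene of the Spätzle-processing enzyme SPE, the protease that releases the Toll ligand, had 57.4, 232.5 and 93.3 CPM in exposed males and 71.97, 72.8 and 54.2 CPM in air males. The log2 fold change of SPE was 0.94 (SE 0.40), and 0.19 without exposed replicate 2. It was the only one of the 22 genes of the Toll and Imd signalling list with an unadjusted p under 0.05 on the higher side, against 1.27% of all genes, and it was chosen for mention after its values were seen. The adaptor gene Myd88, also chosen after its values were seen, had 80.0, 81.2 and 86.9 CPM in exposed males and 123.5, 119.1 and 87.1 CPM in air males. Its arms did not overlap, with a log2 fold change of -0.41 (SE 0.22). The 15 tested genes of peptidoglycan and glucan recognition had a median of 0.07. The sum of that list was 1356 CPM in exposed replicate 2 and 587.5 to 729 CPM in the other day 7 male libraries.

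Antimicrobial peptide genes varied widely in both arms. For 19 of 21 listed genes that could be tested the median log2 fold change was 0.69, and 13 were positive. Summed levels were 3407, 4869 and 6486 CPM in exposed males and 2773, 4977 and 879 CPM in air males. The arms overlapped, with air replicate 3 the lowest and air replicate 2 above all but one exposed library. Without exposed replicate 2 the median was 0.23 with 11 positive. The antifungal peptide gene Drs, the classic Toll target, had 133.8, 2040 and 348.9 CPM in exposed males and 170, 455.4 and 120.8 CPM in air males. Its log2 fold change of 1.76 (SE 1.03) was -0.03 without exposed replicate 2. Drsl4, a drosomycin-like gene, had 29.3, 74.98 and 55.4 CPM in exposed males and 38.2, 32.8 and 27.5 CPM in air males, a log2 fold change of 0.69 (SE 0.36).

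The library with the highest level differed from one antimicrobial peptide gene to the next, and it was exposed replicate 2 for 6 of the 19 and exposed replicate 3 for 7. The genes of this paragraph were chosen after their values were seen. The attacin gene AttA had 19.7, 326.9 and 64.5 CPM in exposed males and 77.5, 87.4 and 18.3 CPM in air males, with replicate 2 the highest exposed library. AttB, its close paralogue, had 5.91, 146.5 and 44.4 CPM in exposed males and 78.9, 23.8 and 8.35 CPM in air males. The log2 fold changes without exposed replicate 2 were -0.53 for AttA and -0.55 for AttB, against 1.16 and 0.81 with it. The Dro gene of drosocin had 2362, 814 and 3764 CPM in exposed males and 705.5, 2815 and 122.1 CPM in air males, so replicate 2 was the lowest exposed library there. Another attacin gene, AttC, had 98.9, 189 and 224.6 CPM in exposed males and 381.4, 196 and 20.8 CPM in air males. DptB, a diptericin gene, had 36.3, 78.4 and 124.4 CPM in exposed males and 256.6, 97.0 and 12.01 CPM in air males. For AttC and DptB the exposed values lay inside the air range. CecB, a cecropin gene, had only 27 counts over the exposed and 3 over the air libraries, and its estimate of 3.41 (SE 1.25) on the log2 scale rests on those counts. The JAK-STAT list with the Turandot stress peptides had a median of -0.14 over 13 genes. TotA ranged from 329.2 to 832.2 CPM in exposed and from 245.3 to 1157 CPM in air males.

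**Figure D4:**
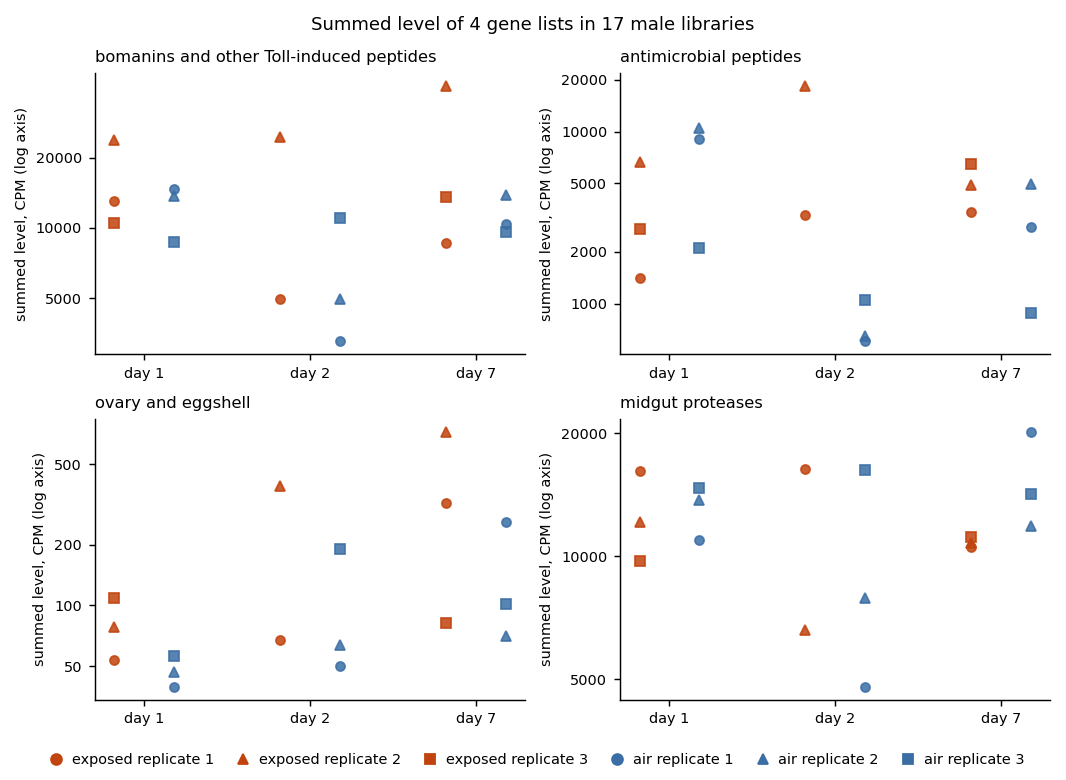
Summed level (TMM-scaled CPM, log axis) of 4 gene lists in 17 male libraries on days 1, 2 and 7, exposed libraries at the left and air libraries at the right of each pair, symbols marking replicates. On day 2 exposed males have 2 libraries, since the third holds markers of both sexes and was left out. On day 7 the highest sum of the Toll-induced peptides, 40560 CPM, is exposed replicate 2, and the 3 exposed sums of midgut proteases lie below the 3 air sums.

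Genes of the ovary and eggshell, which mark female tissue, were detected at low levels in several of these male libraries. Of 32 listed genes 23 could be tested, 19 of them with a positive log2 fold change and a median of 0.90. For 8 the unadjusted p was under 0.05 on the higher side, against 1.27% of all genes. Summed levels were 322.1, 724.8 and 81.9 CPM in exposed males and 259.9, 70.5 and 101.8 CPM in air males. Exposed replicates 1 and 2 and air replicate 1 were high, and the arms overlapped. Without exposed replicate 2 the median was 0.36.

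Among the chorion genes, which build the eggshell, Cp19 had 12.1, 83.0 and 2.61 CPM in exposed males and 5.63, 0.732 and 1.03 CPM in air males. Its log2 fold change was 3.70 (SE 1.08), and 1.58 without exposed replicate 2. Cp7Fb, also a chorion gene, had 5.32, 30.4 and 0 CPM in exposed males and 0.938, 0.610 and 0.458 CPM in air males. The eggshell gene Femcoat had 1.77, 13.9 and 1.19 CPM in exposed males and 0.469, 0.366 and 0.114 CPM in air males, at 89 and 8 counts in all. The yolk protein gene Yp1 had 31.4, 188.6 and 14.9 CPM in exposed males and 54.0, 16.7 and 24.0 CPM in air males. In these 4 genes exposed replicate 2 was the highest library, as it was for 14 of the 23 tested. Exposed replicate 1 was the highest for 5, among them the chorion gene Cp38, at 67.9, 44.4 and 7.36 CPM in exposed males and 13.9, 0.976 and 7.66 CPM in air males. The vitelline membrane gene Vm34Ca had 26.9, 7.77 and 1.78 CPM in exposed males and 11.1, 1.59 and 2.29 CPM in air males. Cp38, Vm34Ca and Yp1 were chosen after their values were seen. The female markers were thus not high in one library only. Over the male libraries of days 1 and 2 the list sum ranged from 39.5 to 391.8 CPM. The part of RNA from females in the day 7 libraries was not tested.

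Most digestive enzyme genes were lower on average in exposed males, by amounts that varied widely from gene to gene. Log2 fold changes ran from -5.74 to 2.81 among midgut proteases and from -1.15 to 0.75 among carbohydrases and lysozymes. The protease range includes genes with hardly any counts, for which large fold changes are poorly resolved. Of these, chosen after their values were seen, Jon66Cii had 0, 0 and 0 CPM in exposed males and 0, 0.854 and 1.03 CPM in air males. Jon74E had 0.0985, 0.229 and 0.712 CPM in exposed males and 0, 0.122 and 0 CPM in air males. Of 29 midgut proteases tested, 6 had a positive log2 fold change and the median was -0.31. Summed levels were 10523, 10781 and 11141 CPM in exposed males and 20151, 11858 and 14161 CPM in air males. All 3 exposed libraries were below all 3 air libraries, with air replicate 1 the highest by far. Of the 29 genes 5 had exposed arms wholly below the air arms, against 4.65% of all genes. Those are alphaTry, betaTry, Jon65Aiii, Jon65Aiv and Jon99Ciii, singled out after their values were seen. The trypsin gene alphaTry had 3577, 3746 and 4150 CPM in exposed males and 7511, 4542 and 5122 CPM in air males, a log2 fold change of -0.58 (SE 0.37). The Jonah protease gene Jon65Aiii had 986.5, 771.9 and 1181 CPM in exposed males and 2085, 1254 and 1356 CPM in air males, a log2 fold change of -0.68 (SE 0.33). Many Jonah and trypsin genes are near copies in tandem, so reads may have been split among them in counting.

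Carbohydrases and lysozymes of the midgut had a median of -0.36 over 26 genes, 6 of them positive. Their sums were 4841, 5809 and 5904 CPM in exposed males and 8365, 6098 and 6538 CPM in air males, again without overlap. The amylase gene Amy-d had 190.3, 180.4 and 219.8 CPM in exposed males and 383, 253 and 372.3 CPM in air males, a log2 fold change of -0.77 (SE 0.43). The maltase gene Mal-A1 had 739.4, 962.6 and 1068 CPM in exposed males and 1568, 1321 and 1086 CPM in air males, a log2 fold change of -0.52 (SE 0.33). Both were chosen after their values were seen. Left without exposed replicate 2, the medians of the digestive lists were -0.32 for proteases and -0.24 for carbohydrases and lysozymes. Those medians still include air replicate 1. It was the highest library for 18 of the 29 proteases and 16 of the 26 carbohydrases and lysozymes. The sums of 5 of the 49 lists had exposed arms wholly below air arms (10.2%) and 1 had them wholly above (2.04%). The other 3 on the lower side were the cnc-Keap1, insulin and dosage compensation lists. No count of list sums was tested.

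Metabolic regulators gave small differences. In the list of insulin, adipokinetic hormone and starvation genes the sums were 3466, 3659 and 3512 CPM in exposed males and 3742, 3809 and 3687 CPM in air males, while the median over 27 genes was 0.04. ImpL2, a secreted antagonist of insulin-like peptides, had 113.7, 127.5 and 135.2 CPM in exposed males and 186.4, 184 and 166.4 CPM in air males. Its arms did not overlap, with a log2 fold change of -0.51 (SE 0.23). The lipase gene bmm, which releases stored fat, had 50.6, 83.9 and 71.9 CPM in exposed males and 122.6, 102.6 and 91.2 CPM in air males, with a log2 fold change of -0.62 (SE 0.27). Both genes were picked after their values were seen, and both had an adjusted p of 1 in edgeR's test. Medians were -0.04 for central carbon metabolism and -0.07 for lipid genes, and with exposed replicate 2 left out they were 0.02 for central carbon metabolism and 0.05 for lipid genes.

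Genes that handle foreign chemicals and oxidants had list medians between -0.22 and 0.02, and 1 of these lists, cnc-Keap1 with glutathione synthesis, had summed levels wholly lower in exposed males. Cytochrome P450s had a median of -0.05 over 77 genes, with sums of 10729, 7945 and 10119 CPM in exposed males and 8994, 9714 and 10569 CPM in air males. Glutathione transferases had a median of -0.02 over 37 genes. For the unadjusted threshold 1 of 77 P450 genes passed on the higher and 2 on the lower side, and 1 of 37 glutathione transferase genes on the higher side, where all genes gave 1.27% higher and 0.62% lower. None of these genes passed it in either list without exposed replicate 2. The cnc-Keap1 and glutathione synthesis list had a median of -0.13, with 1 of 12 genes positive, and of -0.06 with 5 of 12 positive without exposed replicate 2. Its sums were 2188, 1883 and 2195 CPM in exposed males and 2289, 2233 and 2262 CPM in air males. Gclc, the catalytic subunit of the enzyme that limits glutathione synthesis, had 57.0, 83.9 and 67.4 CPM in exposed males and 89.2, 98.1 and 74.8 CPM in air males, a log2 fold change of -0.33 (SE 0.21), or -0.48 without exposed replicate 2. Gclc was named outside the rules for named genes, and the lowest log2 fold change of its list was -0.33. Heat shock genes had a median of 0.02, metallothioneins -0.22, UDP-glycosyltransferases 0.02 and the genes of superoxide, peroxide and thioredoxin defence -0.06. The heat shock median was -0.30 without exposed replicate 2, with 3 of 20 genes positive against 11 with it, and the metallothionein median was -0.34. MtnA, a metallothionein gene, lay between 3250 and 3500 CPM in exposed males and between 3107 and 3544 CPM in air males.

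Among male reproductive genes, the seminal fluid list gave different medians with and without exposed replicate 2, which had the lowest sum of these genes. The median of the testis list changed little. The accessory gland and seminal fluid list had a median of 0.00 over 73 genes, with summed levels of 57864, 47910 and 74117 CPM in exposed males and 62911, 65623 and 56342 CPM in air males. With all libraries 37 of the 73 genes were positive. The median was 0.15 with exposed replicate 2 left out, and 64 of 73 were positive, against 6423 of all 13103 genes tested without it. Exposed replicate 3 was the highest library for 51 of the 73, and the sum of exposed replicate 1 lay within the air range. Testis and sperm genes had a median of -0.09 over 74 genes, and -0.06 without exposed replicate 2. Their sums were 7068, 5156 and 5043 CPM in exposed males and 6576, 6135 and 6195 CPM in air males. Cytosolic ribosomal protein genes had a median of -0.05 over 81 genes and nuclear genes of oxidative phosphorylation 0.00 over 68 genes.

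Transcripts encoded by the mitochondrial genome summed to 160016, 199089 and 154572 CPM in exposed males and 57815, 147941 and 140907 CPM in air males. This was the single list with exposed sums wholly above air sums. Most of the sum was the large ribosomal RNA lrRNA, at 126748, 135400 and 114861 CPM in exposed males and 29548, 107137 and 100906 CPM in air males. Air replicate 1 was far below the other 5 libraries, and the log2 fold change of lrRNA was 0.67 (SE 0.39). Over the 15 mitochondrial transcripts the median was 0.21, and 0.05 without exposed replicate 2.

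Neuronal genes had a median of 0.11 over 25 genes, 18 of them positive, and 2 genes passed the unadjusted threshold on the higher side, against 1.27% of all genes. Without exposed replicate 2 the median was 0.14 with 21 of 25 positive, and 0 genes passed that threshold in edgeR's test. The voltage-gated sodium channel gene para had 151.7, 278.6 and 130.3 CPM in exposed males and 96.2, 113.7 and 133.5 CPM in air males, a log2 fold change of 0.70 (SE 0.32), or 0.31 without exposed replicate 2. For the gap junction gene shakB the levels were 23.0, 102.2 and 31.1 CPM in exposed males and 18.6, 28.8 and 27.2 CPM in air males, a log2 fold change of 1.05 (SE 0.43), or 0.13 without that library. Exposed replicate 2 was the highest library for both. Both were named outside the rules for named genes, and the highest log2 fold change of the list was 1.05.

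Set beside the earlier days, no gene passed the adjusted threshold for a difference of the day 7 effect from that of day 1 or day 2. The difference from day 1 gave 0 of 13216 genes (0%) in edgeR's test, with a smallest adjusted p of 0.930 and 641 genes at an unadjusted p under 0.05 (4.85%). The difference from day 2 also gave 0 genes (0%), with a smallest adjusted p of 0.872 and 535 genes at an unadjusted p under 0.05 (4.05%). DESeq2 was not run on these differences. For the exposure effect itself the unadjusted threshold was met by 1053 genes on day 1 (7.97%) and 925 on day 2 (7%), again with 0 genes past the adjusted one on either day.

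The genes with the smallest p against day 2 on the negative side were AttC, Cyp4e3 and DptB. AttC had a log2 fold change of 6.43 (SE 1.14) on day 2, from 239.3 and 1439.5 CPM in exposed males and 9.82, 7.82 and 11.6 CPM in air males, and of -0.22 (SE 0.87) on day 7. The 3 air libraries of day 7 ranged from 20.8 to 381.4 CPM, all above the air libraries of day 2. For DptB the log2 fold change was 5.81 (SE 1.14) on day 2 and -0.61 (SE 0.91) on day 7. The P450 gene Cyp4e3 had 67.9 and 1520 CPM in exposed and 9.63, 45.4 and 46.9 CPM in air males of day 2, and on day 7 69.0, 51.7 and 68.5 CPM in exposed and 43.7, 47.7 and 95.1 CPM in air males. One exposed library of day 2 was far above the rest. The differences of day 7 from day 2 were -6.65 (SE 1.39) for AttC, -6.42 (SE 1.43) for DptB and -4.53 (SE 0.98) for Cyp4e3, each with an adjusted p of 0.872. Over the 19 antimicrobial peptide genes the median log2 fold change was -0.30 on day 1, 3.85 on day 2 and 0.69 on day 7.

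On the positive side against day 2 stood snoRNA:Psi18S-531, Con and phu. Con, a cell adhesion gene, had 22.1, 45.0 and 18.2 CPM in exposed males and 13.1, 12.8 and 14.2 CPM in air males on day 7, with a difference from day 2 of 1.85 (SE 0.50). The phosphatase gene phu had 78.0, 39.5 and 77.0 CPM in exposed males and 29.2, 27.2 and 40.7 CPM in air males on day 7, with a difference from day 2 of 2.50 (SE 0.68). On day 2 phu was at 2.73 and 1.00 CPM in exposed males and 3.19, 9.45 and 3.49 CPM in air males. For snoRNA:Psi18S-531 the difference of 2.55 (SE 0.66) came with a day 7 log2 fold change of -0.25 (SE 0.45).

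Against day 1 the genes with the smallest p were CG9452, Pkc53E and NfI on the positive side and MFS12, CG12896 and CG1983 on the negative side. CG9452 had 6.50, 6.4 and 8.19 CPM in exposed males and 4.45, 3.05 and 2.75 CPM in air males of day 7. On day 1 it had 1.65, 1.82 and 2.50 CPM in exposed males and 6.16, 4.996 and 4.05 CPM in air males, so the arms stood apart in opposite directions on the 2 days, with a difference of 2.39 (SE 0.55). The protein kinase C gene Pkc53E, known from photoreceptors, had 29.1, 43.2 and 25.9 CPM in exposed males and 20.5, 22.3 and 20.1 CPM in air males on day 7. Its log2 fold change was -0.75 (SE 0.23) on day 1 and 0.63 (SE 0.23) on day 7. NfI, a transcription factor gene, had 17.1, 15.3 and 16.9 CPM in exposed males and 12.4, 11.7 and 13.04 CPM in air males on day 7, and a difference between the days of 1.24 (SE 0.30). CG12896, which encodes a peroxiredoxin, had a log2 fold change of 3.46 (SE 0.69) on day 1 and -0.45 (SE 0.64) on day 7. Its exposed libraries of day 1 ranged from 35.9 to 514.5 CPM, and those of day 7 from 37.5 to 54.9 CPM. The transporter gene MFS12 had a difference of -2.58 (SE 0.55) and CG1983 one of -1.96 (SE 0.48). All 6 had an adjusted p of 0.930 in the test of the difference.

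**Figure D5:**
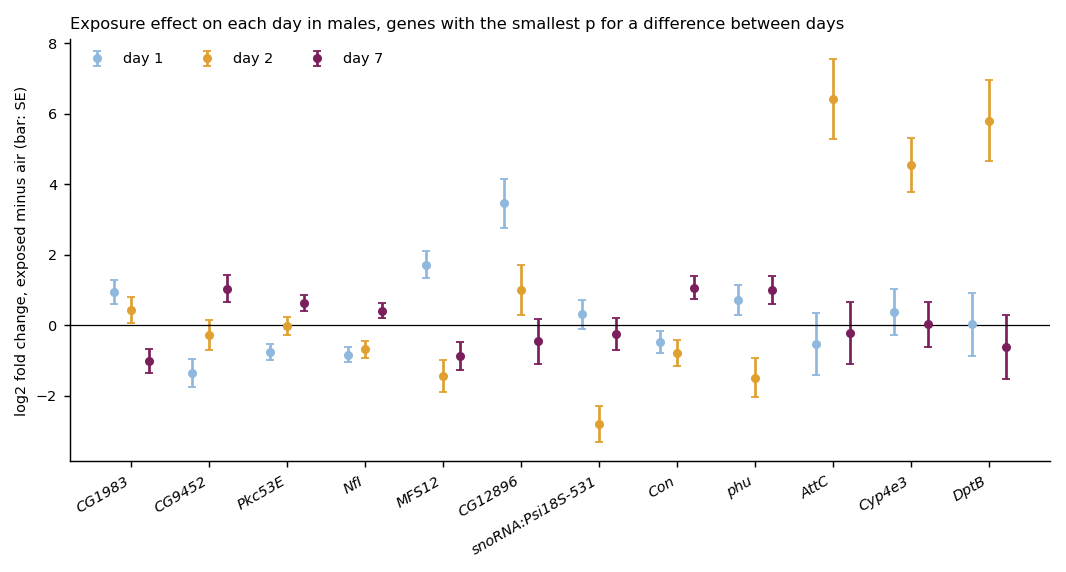
Log2 fold change (exposed minus air) with its SE on days 1, 2 and 7 in males, for the genes with the smallest p in the tests of day 7 against day 1 or day 2. The day 2 points of AttC, Cyp4e3 and DptB lie above 4, and their day 7 points lie between -0.61 and 0.02. None of the differences passed the adjusted threshold.

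In the comparison of the sexes on day 7, 0 of 13621 genes differed in their response (0%), with a smallest adjusted p of 1 and 384 genes at an unadjusted p under 0.05 (2.82%). In females of that day the exposure effect met the unadjusted threshold for 618 genes (4.54%) and the adjusted one for 0, with a smallest adjusted p of 0.0761. CG30377, Cp7Fb and Femcoat had the smallest p with a more positive effect in males, by 3.65 (SE 0.86), 4.11 (SE 1.15) and 4.59 (SE 1.29). Female levels are scaled in the fit of both sexes. Without male exposed replicate 2 the difference of CG30377 was 1.04. In females CG30377 had 46.5, 49.0 and 49.0 CPM in exposed and 42.1, 57.6 and 63.6 CPM in air flies. Cp7Fb had 535.8, 467.7 and 337.1 CPM in exposed and 462.1, 490.3 and 486.8 CPM in air females. Femcoat had 101.8, 159 and 141.4 CPM in exposed and 163, 286.8 and 193.4 CPM in air females. For the eggshell genes Cp7Fb and Femcoat every female library was above every male library, while CG30377 reached 69.7 CPM in exposed male replicate 2 alone, above all female libraries. Among females of day 7, exposed replicate 2 was the highest library for Hr4, nAChRalpha3, CG13300 and AstA-R1, but not for CG30377, inv, dao or Cp19. Hr4 had 25.4 CPM there and 2.64 to 9.62 CPM in the other female libraries. For nAChRalpha3 these values were 23.2 and 3.53 to 8.88 CPM, and for CG13300 13.2 and 1.24 to 2.78 CPM. The cause was not tested.

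With a more negative effect in males stood CG15533, lncRNA:cherub and CG42841. CG15533, of the acid sphingomyelinase family, had 14.67, 13.03 and 15.2 CPM in exposed males and 33.3, 13.9 and 29.6 CPM in air males. In females it had 5.70, 7.03 and 9.73 CPM in exposed and 1.29, 0.508 and 0.370 CPM in air flies, and the effect in males minus that in females was -4.20 (SE 1.07). CG42841 was near the floor in females, at 0.184, 2.02 and 0.0953 CPM in exposed flies against 0.0995, 0 and 0 CPM in air flies. In males it stood at 34.5, 36.3 and 27.2 CPM in exposed and 39.2, 35.97 and 39.0 CPM in air flies. List medians on day 7 were 0.69 in males and 2.24 in females for antimicrobial peptides, and 1.22 in males and 1.21 in females for the Toll-induced peptides, where the male value without exposed replicate 2 was -0.03. For midgut carbohydrases and lysozymes the medians were -0.36 in males and 1.14 in females. These list differences were not tested.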

How the data were processed

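Whole-fly RNA of 36 samples was sequenced from transcript 3' ends (Lexogen QuantSeq), per the labels' protocols. The authors deposited raw counts for each gene, not normalized. Their processing tools were fastp, STAR and HTSeq with the dm6 build, per the submitters' processing notes. For their versions, annotation and strand setting, the sources used here state nothing. Overlapping and antisense genes may therefore share reads. Each file held 17583 entries, 1 of them blank with at most 0.000107% of a library. Of the symbols 17290 matched the BDGP6.54 annotation (Ensembl release 115). Depth was 4681333 to 17182966 counts per library.

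Libraries with lncRNA:roX1 over 100 CPM and Yp1 over 1000 CPM were taken as mixed in sex. There were 2, one of them exposed male replicate 3 of day 2, and both were left out. The 17 remaining male libraries in 6 groups were fitted with edgeR 4.0.16 (R 4.3.3): filterByExpr (minimum count 10, total 15), TMM, quasi-likelihood F test, Benjamini-Hochberg threshold 0.05, prior count 0.125. A fold change is exposed over air on the log2 scale, and its SE is its size over the square root of F. Days were compared by interaction contrasts in that fit, and sexes in a fit of 34 libraries. The procedure was tested on simulated data. Alternatives were DESeq2 1.42.0 (test and size factors), other filters, the mixed libraries kept, other sets of libraries, a replicate block and leaving out each day 7 library. The libraries, the 49 lists and the comparisons were chosen with earlier results of these data known. Named genes were the 8 with the smallest p per direction, 3 per direction for each difference, and the 3 with the smallest p of each list whose median was at least 0.5 in size. Other genes were named outside these rules. They include the genes said to be chosen after their values were seen, and also TotA, MtnA, lrRNA, Gclc, para and shakB.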

Additional observations from a re-analysis of the deposited data

How the results depend on the processing

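The count of 0 genes for the exposure effect held under all alternatives that kept the adjusted threshold: DESeq2, its size factors within edgeR, all genes with a count, genes at 5 CPM or more in at least 3 libraries, the mixed libraries kept, only the 6 libraries, both sexes in one fit, the replicate block and each library left out. Under the threshold of the series text it was 227. The difference from day 2 went from 0 to 3 genes with no filter, AttC, Cyp4e3 and DptB at an adjusted p of 0.0477 each by edgeR, and to 12, all more negative on day 7, with the replicate block. It rests on 2 exposed libraries of day 2. The difference between the sexes ranged from 0 to 1 gene when single libraries were left out: without male exposed replicate 3, CG30377 passed with a difference of 4.19 (adjusted p = 0.0486 by edgeR), while over the libraries left out its difference ranged from 1.04, without male exposed replicate 2, to 4.19. Leaving out single libraries turned the direction of 4 named genes. Over the libraries left out in turn, log2 fold changes ranged from -0.47 to 4.53 for Hr4, -0.029 to 2.53 for Drs and -0.23 to 2.65 for BomS1, lowest without exposed replicate 2, and from -6.12 to 0.44 for lncRNA:cherub, highest without air replicate 1. The cause was not tested. List medians moved by more than their spread in 31 recomputations and by less in 655. Same-numbered exposed and air libraries did not deviate together on day 7 (correlations 0.036, 0.025 and -0.060), so the numbers were not taken as pairs, and the block gave 0 genes for the exposure effect, with 225 at an unadjusted p under 0.05. With 3 libraries a side, and 4681333 counts in exposed replicate 2, differences in low genes are the least resolved.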
